A study of Mus musculus with 47 samples.

Results

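Immediate early response genes were described in mouse leukaemic spleens as a set of 9 genes: Fos, Fosb, Jun, Junb, Egr1, Ier2, Dusp1, Atf3 and Zfp36. Each gene was read from the probe set that names that gene alone and has the highest mean over all arrays. The 9 genes were 9 of the 18193 genes with such a probe set, and all 9 passed the filter that left 18178 genes for testing, a log2 value above 5 in at least 9 arrays. Jun alone had a second probe set, and its values followed the first (r = 0.92 and rho = 0.88 over 47 arrays).

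The data were 47 Affymetrix whole-genome mouse arrays, each of 1 spleen from a different mouse, with no technical replicates. Every mouse carried Tg(ACTB-cre)2Mrt, a Cre recombinase driven by a promoter active in all tissues, and Gt(ROSA)26Sortm2(sb11)Njen, the Sleeping Beauty transposase. The mobile transposon was TgTn(sb-T2/Onc2)6113Njen in 21 mice and TgTn(sb-T2/Onc2)6070Njen in 26. All were diagnosed with undifferentiated myeloid leukaemia, and the tissue was frozen at necropsy. The labels gave an Erg insertion for 26 tumours and none for 21. They gave 25 females, 22 males and ages of 32 to 97 with a median of 68, in a unit the labels do not state. There were no healthy spleens, so every level below is a level among leukaemias.

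Immediate early genes are transcribed within minutes of a stimulus without new protein synthesis. Growth factors, cytokines, stress and antigen receptors act through MAP kinases, serum response factor, CREB and NF-kB on promoters that are already poised. The products then either drive the next wave of transcription, as the AP-1 proteins FOS and JUN and the zinc finger factor EGR1 do, or end the response, as the phosphatase DUSP1 and the mRNA decay factor ZFP36 do. Their mRNAs are short lived, so their levels follow recent stimulation.

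The promoters of Dusp1 and of Zfp36 and Fos are shown because Dusp1 had its highest Pearson r over 47 arrays with these 2 members. For Fos that r rests on 1 spleen. They are the 250 bases before the RefSeq transcription start on GRCm38.p6, 5′ to 3′ on the gene's strand, at chr12:85473640-85473889 (plus strand) for Fos, chr17:26508473-26508722 (minus strand) for Dusp1 and chr7:28379229-28379478 (minus strand) for Zfp36. Capitals mark matches to the motifs named after them.
Fos: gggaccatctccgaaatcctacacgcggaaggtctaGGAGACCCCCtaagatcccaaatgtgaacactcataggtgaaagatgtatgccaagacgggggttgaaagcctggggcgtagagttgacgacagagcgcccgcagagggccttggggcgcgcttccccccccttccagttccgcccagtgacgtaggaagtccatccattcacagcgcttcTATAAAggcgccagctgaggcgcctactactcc
Dusp1: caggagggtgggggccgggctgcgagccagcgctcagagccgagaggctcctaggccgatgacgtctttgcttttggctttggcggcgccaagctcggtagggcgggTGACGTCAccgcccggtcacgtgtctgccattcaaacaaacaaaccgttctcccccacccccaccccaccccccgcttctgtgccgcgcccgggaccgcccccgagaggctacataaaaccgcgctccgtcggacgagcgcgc
Zfp36: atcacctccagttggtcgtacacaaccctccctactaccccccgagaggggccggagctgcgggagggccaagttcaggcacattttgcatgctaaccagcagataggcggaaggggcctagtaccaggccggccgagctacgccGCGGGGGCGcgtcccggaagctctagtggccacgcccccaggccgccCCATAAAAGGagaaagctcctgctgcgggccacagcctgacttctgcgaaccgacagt
The capitals in Fos are an NF-kB consensus match starting 214 bases before the start and the TATA motif TATAAA starting 33 bases before it. Those in Dusp1 are the cyclic AMP response element TGACGTCA, 143 bases before the start. Those in Zfp36 are the EGR motif GCGNGGGCG, 105 bases before the start, and a CArG box, the serum response factor motif, 58 bases before it. Both strands were searched in 7 of the 9 genes for which a window was at hand. Fosb held the EGR motif and the NF-kB consensus, and Jun, Junb and Atf3 held none of the 6 motifs. The AP-1 motif TGANTCA was in 0 of these 7 windows. Over 32851 mouse promoter windows of the same length, 1.47% held a CArG box, 1.55% the TGACGTCA element, 4.70% the EGR motif, 6.75% the AP-1 motif, 7.25% the NF-kB consensus and 12.4% TATAAA. No motif stood in the windows of all 3 genes, and a match is only a description of letters.

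The arrays were alike in scale, with medians between 5.19 and 5.24, and the 25th percentile of all values was 5.08. Values near that level are close to the floor of the method, where changes are compressed. Pairs of arrays correlated between 0.90 and 0.99, and 0 pairs were identical. The sex labels matched the X-inactivation transcript Xist in 23 arrays and not in 24, so groups are named by their labels. In bulk spleen, fewer cells of a type and less RNA per cell cannot be told apart.

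Most spleens had low levels of Fos and Fosb, and a few stood far above the rest in Fos but not in Fosb. Egr1 and Jun were spread widely. Fos, the partner of JUN proteins in AP-1, had a lowest value of 5.21, a median of 5.43 and a highest value of 7.72 on the log2 scale (SD 0.41, n = 47). Only 3 spleens exceeded log2 6 and 1 exceeded log2 7. Fosb, its close relative, ran from 4.96 to 5.13 with a median of 5.04 (SD 0.039), so it lay at the floor in every spleen.

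Jun, the DNA-binding partner of FOS, had a lowest value of 5.30, a median of 5.91 and a highest of 8.16 (SD 0.56), with 20 spleens above log2 6 and 3 above log2 7. Junb, a JUN family member, was narrower, at 5.49, 5.67 and 6.14 (SD 0.12). Atf3, a stress-induced factor of the related ATF family, had 5.06, 5.26 and 5.51 (SD 0.090) and 0 spleens above log2 6. Of the 5 AP-1 and ATF family genes, only Jun was above log2 6 in at least 9 spleens, and only by its first probe set.

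Egr1, the zinc finger factor, had the widest spread of the 9 genes, with a lowest value of 5.61, a median of 6.34 and a highest of 8.90 (SD 0.79). It exceeded log2 6 in 38 spleens, log2 7 in 12 and log2 8 in 5. Ier2, a small nuclear protein gene, was above log2 6 in all 47 spleens, at 6.35, 6.76 and 7.26 (SD 0.24). It had no spleen that stood apart.

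Dusp1, the phosphatase that switches off MAP kinases, had a lowest value of 5.81, a median of 6.52 and a highest of 9.02 (SD 0.52). Its highest spleen stood alone, since the next reached only 7.19. Zfp36, or tristetraprolin, which speeds the decay of AU-rich mRNAs, had 5.53, 5.97 and 6.73 (SD 0.28), with 20 spleens above log2 6.

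**Figure D1:**
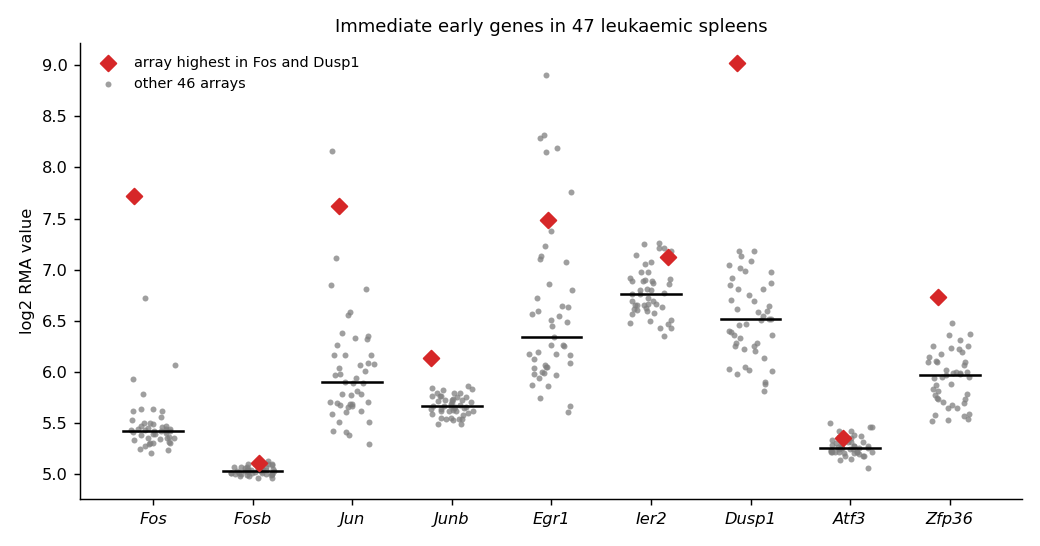
Levels of the 9 immediate early genes in 47 leukaemic spleens, as log2 RMA values of each gene's own probe set, with 1 point per array and a black line at the median. The red diamond is the array with the highest Fos, 7.72, and the highest Dusp1, 9.02. Heights of different genes are not comparable because each probe set has its own scale.

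The spleen with the highest Fos was also the highest in Junb, Dusp1 and Zfp36 and the second highest in Jun and Fosb. It was a spleen of line 6070 without an Erg insertion label. Its Fos was 7.72, against 5.21 to 6.73 in the other 46 spleens, and its Dusp1 was 9.02, against 5.81 to 7.19. Its Junb of 6.14 lay above the highest other value of 5.87, and its Zfp36 of 6.73 above the highest other value of 6.48. Its Jun was 7.62, its Egr1 7.49 and its Ier2 7.13, each inside the range of the other spleens, and its Atf3 of 5.36 ranked 10.

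The same spleen stood above all others in Smad1, a signal transducer of bone morphogenetic proteins, at 8.18 against at most 6.70. It did so too in Tbc1d2, at 7.23 against at most 5.51, and in Col9a2, a cartilage collagen gene, at 5.86 against at most 5.15. Its mean over the B cell markers ranked 4 and over the monocyte and macrophage markers 3 of 47. Its 3′ minus 5′ control difference, 1.58, ranked 12. The part of these in its high values was not tested. Values without it are given beside the main results.

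The second spleen by Fos, at 6.73, was of line 6113 with an Erg insertion label. It was the highest in Atf3, at 5.51, the third in Dusp1, at 7.18, and the fourth in Jun, at 6.85, and in Zfp36, at 6.36.

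Most pairs of the 9 genes had a positive but weak correlation across spleens, and 3 of the pairs kept their call without the spleen highest in Fos and Dusp1. Of the 36 pairs, 34 had a positive Pearson correlation over the 47 arrays, with a median r of 0.32 and a range of -0.08 to 0.68. Spearman's rho was positive in 30 pairs, with a median of 0.19. Over all pairs of the 18178 tested genes, 51.5% were positive and the median r was 0.0087. Without the spleen highest in Fos and Dusp1 the median r of the 36 pairs was 0.20. It was 0.21 in line 6113 and 0.35 in line 6070.

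**Figure D2:**
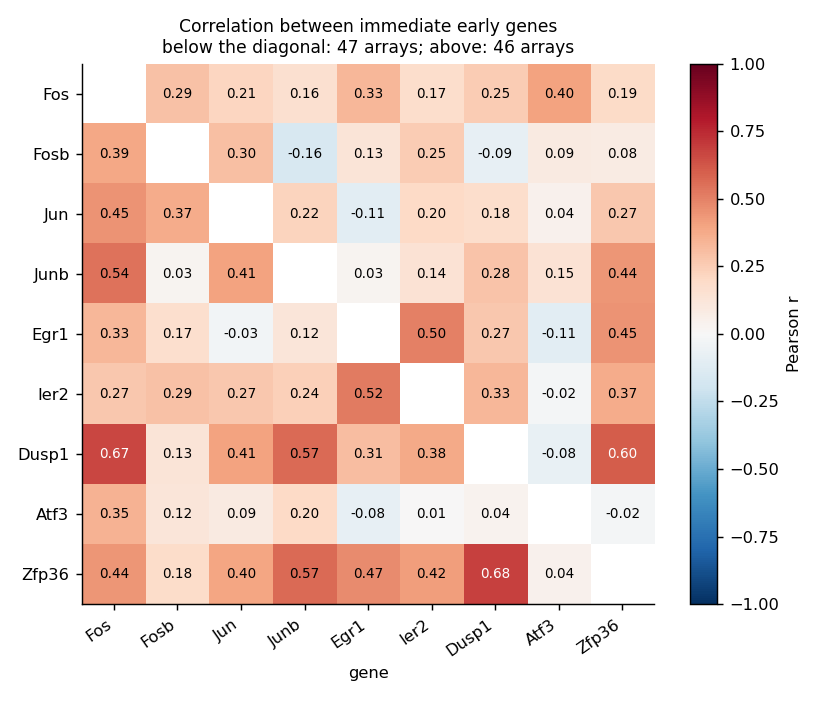
Pearson r between each pair of the 9 genes, over 47 arrays below the diagonal and over 46 arrays, without the array highest in Fos and Dusp1, above it. Dusp1 with Fos has r = 0.67 below the diagonal and 0.25 above it, while Dusp1 with Zfp36 has 0.68 and 0.60.

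Each gene in turn was used as the predictor of every other tested gene in limma, with Benjamini-Hochberg adjustment over the 18177 genes of that fit and a threshold of 0.05. Zfp36 as predictor called 6 of the other 8 members (Fos, Jun, Junb, Egr1, Ier2 and Dusp1), against 17.2% of all genes. Dusp1 called 4 of 8 (Fos, Jun, Junb and Zfp36), against 13.3% of all genes. Egr1 called 2 of 8 (Ier2 and Zfp36), against 19.1%, and Ier2 called Egr1 alone, against 5.31%. Jun called Fos alone, against 4.87%, and Fos called Dusp1 alone, against 0.0715%. Atf3 called 0 of 8, against 1.56%, with 1 of 8 at an unadjusted p under 0.05. Fosb and Junb called 0 of 8 and 0% of all genes in limma, with 3 and 4 of 8 and 558 and 1098 of all genes at an unadjusted p under 0.05. Without the spleen highest in Fos and Dusp1, Zfp36 called 3 of 8 (14.6% of all genes), Dusp1 1 (14.6%), Egr1 2 (17.5%) and Ier2 1 (2.28%). For Dusp1 that is near the share of all genes. For Egr1, 2 of 8 is near the share of all genes both with this spleen and without it. Fos called 0 of 8 in limma (0.187% of all genes), with 2 at an unadjusted p under 0.05, and Jun 0 (3.2%), with 0 at that level.

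A pair counted as called only where it passed in both directions, which 4 of the 36 pairs did. Dusp1 with Zfp36, the 2 genes whose products end the response, was called in every setting run other than line 6113 alone. Their correlation was r = 0.68 and rho = 0.62 over 47 arrays (permutation p = 1e-05, the smallest possible, adjusted p = 0.00063 over 126 relations). It was 0.58 without the 2 arrays farthest from the Dusp1 median, 0.60 without the spleen highest in both, 0.67 in line 6113 and 0.73 in line 6070. The larger of its 2 limma adjusted p-values was 0.000231, and 0.223 in line 6113 alone, with 21 arrays. In the 38 spleens with Cd3d at or below log2 7 the pair had r = 0.75. In the 9 above it r was 0.048 (two-sided exact permutation p = 0.893), and 0.52 without the 2 arrays farthest from the Zfp36 median.

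Dusp1 with Fos had r = 0.67 but rho = 0.16, and a permutation p of 0.0012 for r (adjusted p = 0.0126) and an adjusted p of 0.471 for rho. Without the 1 spleen highest in both, r was 0.25 and the limma adjusted p was 1. The correlation of these genes rests on that spleen. Fos with Junb had r = 0.54 over 47 arrays and 0.16 without it, and rho = -0.0055.

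Egr1 with Ier2 had r = 0.52 and rho = 0.57 (permutation p = 0.00015 for r, adjusted p = 0.0027). Without the 2 arrays farthest from the Ier2 median r was 0.53, and it was 0.66 in line 6113 and 0.49 in line 6070. Egr1 with Zfp36 had r = 0.47 and rho = 0.46 (permutation p = 0.00072 for r, adjusted p = 0.00907), and 0.47 without the 2 farthest arrays. Leaving out the spleen highest in Fos and Dusp1 gave r = 0.50 with Ier2 and 0.45 with Zfp36, both still called. In the limma fits each of these 2 pairs lost its call in 7 of the 17 other settings run, among them each line alone and the 38 spleens with low Cd3d.

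Junb with Zfp36 had r = 0.57 and rho = 0.45, with an adjusted permutation p of 0.00158 for r and 0.0139 for rho, and 0.44 without the highest spleen. It was called with Zfp36 as the predictor and not with Junb (limma adjusted p = 0.00173 and 0.0957). By permutation, 16 of the 36 pairs had an adjusted p below 0.05 for r and 6 for rho. The share of all gene pairs passing this test was not computed, so these counts have no background. Many genes varied together, since 5583 and 5552 of 18177 had an unadjusted limma p under 0.05 with Zfp36 and Egr1. The 2 pairs with a negative r were Egr1 with Jun, -0.028, and Egr1 with Atf3, -0.081. Egr1 and Jun, the 2 most variable members by the probe sets used, did not vary together detectably (permutation p = 0.850 for r). Atf3 had an r between -0.08 and 0.35 with the other 8 members.

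**Figure D3:**
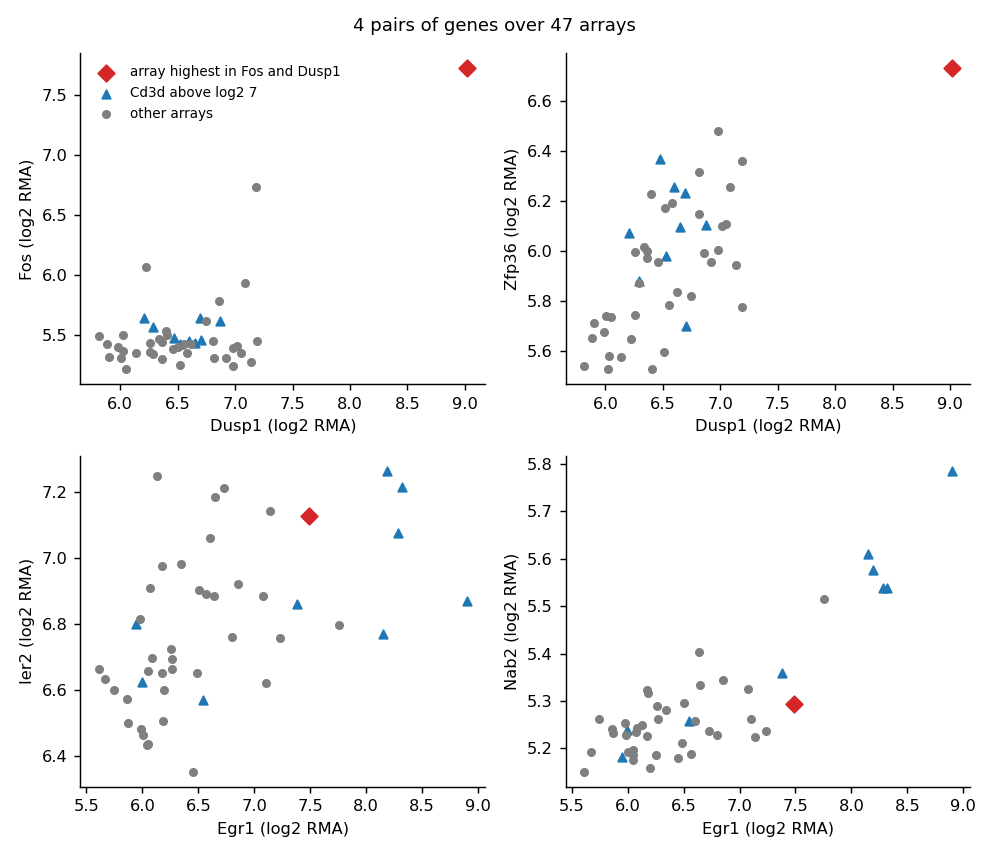
Scatter plots of log2 RMA values over 47 arrays for Dusp1 with Fos, Dusp1 with Zfp36, Egr1 with Ier2 and Egr1 with Nab2. The red diamond is the array highest in Fos and Dusp1, and blue triangles are the 9 arrays with Cd3d above log2 7, which include all 5 with Egr1 above log2 8.

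The spleens highest in Egr1 also had high T cell transcripts. Cd3d, a chain of the T cell receptor complex, was above log2 7 in 9 spleens and at or below it in 38. The spleen highest in Fos and Dusp1, with Cd3d at 5.79, was among the 38. All 5 spleens with Egr1 above log2 8 were among these 9, with Cd3d between 8.53 and 10.23. Of the 12 spleens with Egr1 above log2 7, 6 had Cd3d above log2 7 and 6 did not. Over 47 arrays 10 of 17 T and NK cell markers rose with Egr1, against 8.78% of all genes with a positive slope. They included Cd3d (r = 0.70), Cd3e (0.67), the granzyme gene Gzma (0.67) and Lef1 (0.63). In the same fit 10 of 17 erythroid markers fell, against 10.3% of all genes, among them Klf1, the erythroid master regulator (r = -0.55). Both counts were also 10 of 17 without the spleen highest in Fos and Dusp1. Over the 38 spleens with low Cd3d the Egr1 fit called 0% of all genes, so it says nothing of these markers.

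Nab2, a corepressor that binds EGR proteins and is itself an EGR target, had the highest correlation with Egr1 of all genes, r = 0.86 over 47 arrays. Its probe set was dim, with 5.15, 5.25 and 5.79 as lowest, median and highest. The relation was also taken on each side of the Cd3d cut at log2 7, which was chosen after seeing the data. Cd3d had no wide gap there, with spleens at 6.79 and 7.36. It was r = 0.96 in the 9 spleens with high Cd3d. In the other 38 it was 0.56, and 0.40 without the 2 farthest arrays. No p is given for these values because Nab2 was picked by its r on these same arrays. Cbl, an E3 ubiquitin ligase of receptor signalling, and Tox, a factor of T cell development, came next after Nab2, at 0.82 and 0.81 over 47 arrays. Within the 38 spleens Cbl had 0.58 and Tox 0.60.

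In the 38 spleens with low Cd3d, Egr1 was tested by permutation with only 3 other members, Fos, Ier2 and Zfp36. All 3 had an adjusted permutation p below 0.05 for r. In the limma fit on Egr1 over all genes 0 of 8 were called, with 5 of 8 at an unadjusted p under 0.05. Egr1 had r = 0.54 with Fos (permutation p = 0.00094, adjusted p = 0.00517), 0.46 with Ier2 (p = 0.00321, adjusted p = 0.0118) and 0.41 with Zfp36 (p = 0.0116, adjusted p = 0.0351 over 22 relations). Their rho were 0.44, 0.54 and 0.30 (adjusted p = 0.0191, 0.00704 and 0.104), so the relation with Zfp36 did not pass by rho, and its r was 0.26 without the 2 farthest arrays. The r with Fos was 0.42 without the 2 arrays farthest from the Fos median. In the limma fit on Egr1, which covers all genes, 3464 genes were called over 47 arrays and 0 over these 38, where 3653 had an unadjusted p under 0.05. The fit on Ier2 called 965 genes over 47 arrays and 0 over the 38, where 2989 had an unadjusted p under 0.05. The fits on Dusp1 and Zfp36 called 2410 and 3132 genes over 47 arrays and 2252 and 2110 over the 38. Far fewer were called over 47 arrays with the first principal component of all tested genes, 35.7% of their variance, as a covariate. They were 352 with Dusp1, 173 with Zfp36, 547 with Egr1 and 1 with Ier2.

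Other immediate early genes were followed in a list of 34, all tested. With Dusp1, 17 rose and 0 fell, at a median r of 0.38 beside -0.034 for all genes, against 3.55% of all genes with a positive slope. With Zfp36, 14 rose and Fosl1 fell, at a median r of 0.32 beside -0.074, against 7.54% of all genes. With Egr1, 10 rose and Klf6 fell (8.78% of all genes rose). With Jun 8 rose (3.55% of all genes), with Ier2 7 (2.52%), with Atf3 4 (1.15%) and with Fos 1 (0.0715%). With Fosb and Junb 0 rose, as did 0% of all genes.

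Without the spleen highest in Fos and Dusp1, 8 of the 34 rose with Dusp1 (3.52% of all genes) and 2 fell (11.1%). Then 3 rose with Jun (2.49%), 4 with Ier2 (1.13%), 10 with Egr1 (8.2%), 11 with Zfp36 (6.47%), 4 with Atf3 (2.45%) and 1 with Fos (0.187%). In the 38 spleens with low Cd3d, 0 rose with Egr1 or Ier2, as did 0% of all genes. There 12 rose with Jun (7.32%), 17 with Dusp1 (3.58%), 16 with Zfp36 (5.31%), 1 with Atf3 (0.363%) and 2 with Fos (0.0935%). These 38 include the spleen highest in Fos and Dusp1, and no fit left out both it and the spleens with high Cd3d.

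In this list Nfkbia and Tnfaip3, which encode inhibitors of NF-kB signalling, rose with 5 members each. With Zfp36 they had r = 0.75 (0.72 without the highest spleen) and 0.74 (0.70). Nfkbia was the gene most like Zfp36 of all those tested. It was bright, with a lowest value of 7.63, a median of 8.70 and a highest of 10.17. Mcl1, an inhibitor of apoptosis, rose with Zfp36 (r = 0.64) and Dusp1 (r = 0.57).

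With Egr1 the highest in the list were Egr2, its relative (r = 0.77, limma adjusted p = 1.4e-07), the orphan nuclear receptor Nr4a1 (0.72) and the MAP kinase phosphatase Dusp2 (0.68). With Jun they were Gadd45b, a stress response gene (0.63), and Jund (0.59). With Atf3 the 4 were Per1, Ccn1, Rhob and Klf6, with r of 0.49 to 0.52. Maff, a small MAF factor, led with Ier2 (0.59).

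The only list gene called with Fos was Ccn1, a secreted matrix protein gene induced by serum. It had r = 0.72 over 47 arrays (limma adjusted p = 3.9e-05), 0.70 without the spleen highest in Fos and 0.56 without the 2 highest. Its rho was 0.38, 0.34 and 0.29 over the same sets. The 3 spleens with the highest Fos, 7.72, 6.73 and 6.07, had Ccn1 at 6.05, 6.09 and 5.83, where the median of all spleens was 5.42.

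Over all genes, the one most like Fos was Tbc1d2 (r = 0.77, but 0.014 without the highest spleen), and Col9a2 was most like Junb (0.57, and 0.087 without it). Cd14, the monocyte coreceptor for lipopolysaccharide, was most like Dusp1 (0.75, and 0.57 without it). Casp4, an inflammatory caspase gene, was most like Jun (0.73, and 0.69 without it). Slc50a1 was most like Ier2 (0.59), Hspb8 most like Fosb (0.53) and 2810030D12Rik most like Atf3 (0.64). No gene was called with Fosb or Junb after adjustment.

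Genes most like the mean standardised level of the 9 members, outside the members and the lists, were ranked by r over 47 arrays with no test. The first 10 were Rgs1 (0.77), the cytokine gene Il1b (0.70), Smad1 (0.70), Rasgef1b (0.68), Gm3924 (0.67), Tbc1d2 (0.65), Ccn2 (0.64), Errfi1 (0.64), Col9a2 (0.60) and Nfkbiz (0.60). Rgs1, a regulator of G protein signalling, had 0.65 and Il1b 0.65 without the highest spleen, while Tbc1d2 had 0.038 and Col9a2 -0.15. The 5 lowest, at -0.56 to -0.54, were Uspl1, Dbr1, Eme1, Otud6b and Ccdc51.

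Of the marker and related gene lists, the genes with the strongest relation to that mean are given as a description, with r over 47 arrays, and do not stand for their lists. Aurka, a mitotic kinase gene, had -0.52 and Hsph1, a chaperone gene, -0.47. The platelet chemokine gene Ppbp had 0.44 and the platelet integrin gene Itgb3 0.43, but the 13 platelet markers ran from -0.31 to 0.44, with a median of 0.20 and 8 above 0. Sparc and Pdgfra of the stromal list had 0.39 each, Chil3 of the neutrophil list 0.35, and the erythroid gene Ermap -0.31. Il7r and Cd4 of the T cell list had 0.32 each. Blnk and Ebf1, B cell genes, had 0.32 and 0.31, and 0.13 and 0.14 without the spleen highest in Fos and Dusp1.

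Of 13 serum response and MAP kinase genes, which act upstream of the response, 6 rose with Egr1 (8.78% of all genes) and 4 with Zfp36 (7.54%). With each of them 2 fell, against 10.3% and 9.69% of all genes, so falls were near the share of all genes. Leaving out the spleen highest in Fos and Dusp1, 6 rose and 2 fell with Egr1, and 3 rose and 1 fell with Zfp36. Map2k2, which encodes the kinase MEK2, fell with Dusp1 (r = -0.56, limma adjusted p = 0.00211, and -0.47 without that spleen), and Mrtfa, a coactivator of serum response factor, rose with Zfp36 (0.48, adjusted p = 0.00753). Of 12 AP-1 and ATF partners, 1 rose with Zfp36, Jdp2 (r = 0.47), and 1 fell, Atf4, the integrated stress response factor (r = -0.42). Both counts were near the shares of all genes, 7.54% and 9.69%. With Egr1, 2 of the 12 rose (8.78% of all genes) and 5 fell (10.3%). Without the spleen highest in Fos and Dusp1 they were also 2 (8.2%) and 5 (9.31%).

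Of 12 heat shock genes, 5 fell with Egr1 (10.3% of all genes fell), 4 with Zfp36 (9.69%), 3 with Dusp1 (9.71%) and 3 with Ier2 (2.79%), and 0 rose with any of the 9. Hsp90aa1, a chaperone gene, fell with Zfp36 (r = -0.66, limma adjusted p = 0.000234) and Egr1 (r = -0.60). Without the spleen highest in Fos and Dusp1, 4 fell with Egr1 (9.31% of all genes), 5 with Zfp36 (8.11%), 5 with Dusp1 (11.1%) and 3 with Ier2 (1.16%). Over the 38 spleens with low Cd3d, 4 fell with Zfp36 (6.29%) and 3 with Dusp1 (8.81%), and the fits on Egr1 and Ier2 called 0% of all genes.

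Dusp1, Zfp36 and Jun were higher where monocyte and macrophage transcripts were higher. B cell and platelet markers also rose with these genes, as counted below. The mean of the standardised monocyte and macrophage markers correlated with Zfp36 at r = 0.57 and rho = 0.58 (adjusted permutation p = 0.00108 over 72 relations), with Jun at 0.54 and 0.42 (p = 0.0018) and with Dusp1 at 0.53 and 0.58 (p = 0.0018). Ier2 had 0.45 and 0.44 (p = 0.0153). Without the 2 arrays farthest from the list's median these r were 0.60, 0.48, 0.61 and 0.40, and without the spleen highest in Fos and Dusp1 they were 0.53, 0.50, 0.51 and 0.42, all past the threshold. In the limma fits 12 of the 19 markers rose with Zfp36 (7.54% of all genes), 10 with Dusp1 (3.55%), 6 with Ier2 (2.52%) and 5 with Jun (3.55%). Without that spleen they were 10, 9, 6 and 4. Ctss, a lysosomal protease gene, had r = 0.65 with Zfp36, and Lyz1, a lysozyme gene, 0.55.

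The members differed in the other cell markers they followed. Dusp1 had r = 0.49 and rho = 0.55 with the neutrophil and granule mean (adjusted permutation p = 0.0153), and 8 of 16 of its markers rose with Dusp1 (3.55% of all genes), including S100a8 (r = 0.58). The r with that mean was 0.53 without the spleen highest in Fos and Dusp1, and 11 markers then rose (3.52%). Egr1 had r = -0.49 and rho = -0.53 with the erythroid mean (adjusted p = 0.00878, and r = -0.49 without that spleen), and Ier2 -0.38 and -0.45 (adjusted p = 0.0398, and 0.0539 without the highest spleen). Within the 38 spleens with low Cd3d, Egr1 with the erythroid mean had r = -0.28 (permutation p = 0.0826, adjusted p = 0.121) and rho = -0.45 (adjusted p = 0.0191).

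Jun had r = 0.45 with the megakaryocyte and platelet mean (adjusted p = 0.0249), and 0.38 without the 2 farthest arrays (adjusted p = 0.0528). Jun, Zfp36 and Dusp1 had r = 0.43, 0.43 and 0.42 with the B cell mean, and 0.36, 0.36 and 0.32 without the spleen highest in Fos and Dusp1, where none passed the threshold. Atf3 went the other way, at r = -0.46 (adjusted p = 0.0137), and -0.53 without that spleen. In the limma fits 9 of 15 B cell markers rose with Jun (3.55% of all genes), 8 with Zfp36 (7.54%) and 7 with Dusp1 (3.55%). Without that spleen they were 5 (2.49%), 3 (6.47%) and 0 (3.52%). Of 13 platelet markers, 5 rose with Jun, 5 with Zfp36 and 3 with Dusp1, and 4, 5 and 5 without that spleen. With the cell cycle mean, Ier2 had r = -0.41 (adjusted p = 0.0267), and -0.31 without the 2 farthest arrays (adjusted p = 0.121). Fos, Fosb and Junb had 0 relations past the threshold in r or rho. In all, 14 of the 72 passed for r and 15 for rho. No r over all arrays is given for the T and NK cell mean, which was high in a minority of spleens. The B cell mean was uneven too, so its r over all arrays need not be a graded relation. Its marker Vpreb1 had a median of 5.47 and exceeded log2 7 in 15 spleens. Within the 38 spleens with low Cd3d the T and NK cell mean had r = 0.47 with Dusp1 (adjusted permutation p = 0.0113 over 22) and 0.40 with Egr1 (0.0351). With Zfp36 r was 0.38 (0.0447) and with Ier2 0.365 (0.0526). In the 9 spleens with high Cd3d these r were 0.145, 0.56, 0.39 and 0.35, and none passed. The other members were not tested there.

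**Figure D4:**
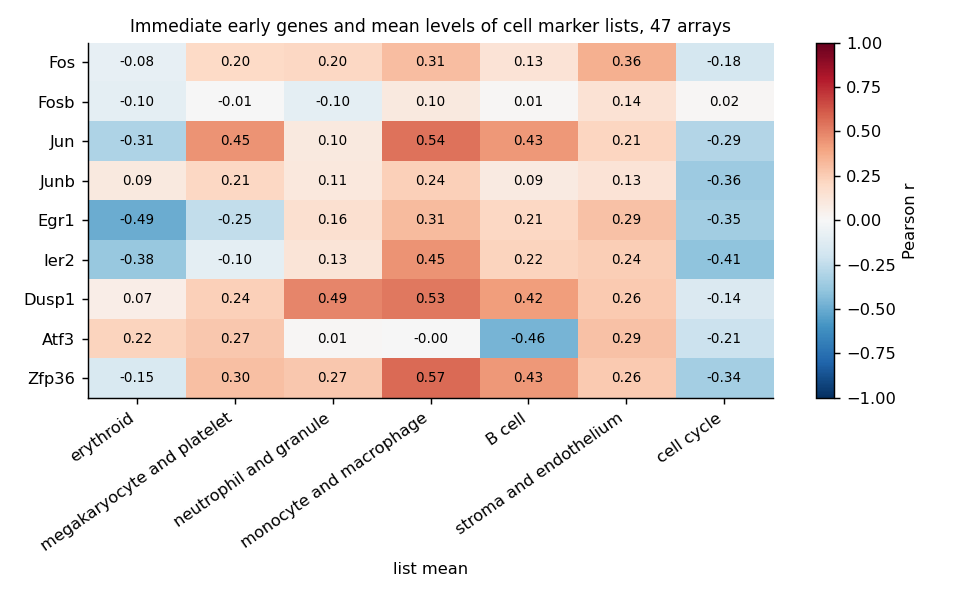
Pearson r over 47 arrays between each of the 9 genes and the mean standardised level of 7 marker lists. Zfp36, Jun and Dusp1 have r of 0.57, 0.54 and 0.53 with the monocyte and macrophage mean, and Egr1 has -0.49 with the erythroid mean.

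The Gapdh and beta-actin control probe sets measure how far the labelled RNA reached towards the 5′ end, and a larger 3′ minus 5′ difference means less of it did. The difference of Gapdh had a lowest value of 0.41, a median of 1.08 and a highest of 2.88 log2 units. That of beta-actin had 0.89, 1.51 and 3.16. The 2 correlated at r = 0.92 and rho = 0.92 over 47 arrays. Fitted on their mean in limma, 3375 of the 18178 genes passed, 18.6%, while 0 of the 9 members did, and 0 had an unadjusted p under 0.05.

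Jun had the steepest slope of the 9, -0.33 ± 0.18 log2 units per unit of the difference (SE, adjusted p = 0.195). Dusp1 had 0.24 ± 0.17 (adjusted p = 0.317), Fos 0.018 ± 0.136 (adjusted p = 0.940) and Egr1 0.047 ± 0.260 (adjusted p = 0.921). Without the spleen highest in Fos and Dusp1 the slopes were -0.37 ± 0.16 for Jun (limma p = 0.0282, adjusted p = 0.105), 0.19 ± 0.12 for Dusp1, -0.033 ± 0.083 for Fos and 0.027 ± 0.26 for Egr1, and 0 of the 9 were called. Of the 18 relations of a member with Gapdh or beta-actin, r ran from -0.29 to 0.26 and 0 passed after adjustment. The smallest permutation p for r was 0.0489, for Jun with beta-actin (r = -0.29, adjusted p = 0.129). For rho it was 0.026, for Atf3 with beta-actin (rho = 0.33, adjusted p = 0.0964), and Atf3 with Gapdh had p = 0.0324 (rho = 0.31, adjusted p = 0.110). No relation was detectable with these errors, which is not evidence of none.

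Of the 34 other immediate early genes 3 were called, a smaller share than the 18.6% of all genes. Ier3 and Egr3 rose and Btg2 fell, at 0.48 ± 0.089, 0.095 ± 0.024 and -0.60 ± 0.21 log2 units per unit (SE, limma adjusted p = 0.000157, 0.00443 and 0.043). With the difference held constant, the median r of the 36 pairs was 0.32 and the limma fits called 5 pairs. The Dusp1 with Zfp36 pair had r = 0.70 there.

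**Figure D5:**
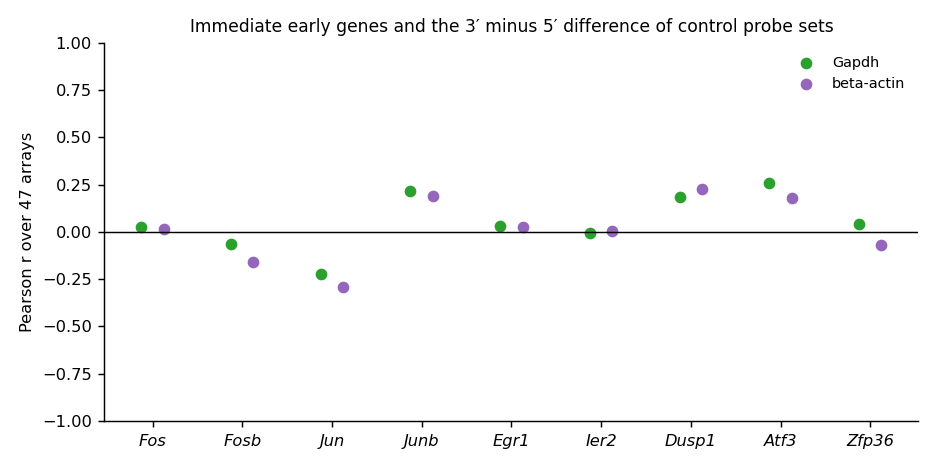
Pearson r over 47 arrays between each of the 9 genes and the 3′ minus 5′ difference of the Gapdh (green) and beta-actin (purple) control probe sets. All 18 values lie between -0.29 and 0.26.

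The Erg insertion, line, sex and age labels and the Erg insertion by line term each called 0 of the 9 members and 0% of all genes in limma. At an unadjusted p under 0.05 they had 666, 540, 460, 688 and 1286 of 18178 genes, and 0, 2, 0, 0 and 0 members. The members at that level were Jun and Fosb for the line label. Jun had a lowest value of 5.65, a median of 6.16 and a highest of 8.16 in 21 spleens of line 6113, against 5.30, 5.74 and 7.62 in 26 spleens of line 6070. The groups overlapped over most of their range, with a difference of 0.37 ± 0.16 (SE, limma p = 0.026, adjusted p = 0.999). Fosb differed by 0.024 ± 0.012 (limma p = 0.0418, adjusted p = 0.999) at the floor. The Jun difference without the spleen highest in Fos and Dusp1 was 0.47 ± 0.14 (limma p = 0.00219, adjusted p = 0.949), and with the number in the tumour identifier as a block it was 0.23 ± 0.19 (limma p = 0.240). That number, of unstated meaning, was 07 in 11 spleens, 08 in 3 and 09 in 33. Every spleen of line 6113 had 09, so line and number cannot be fully told apart.

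For the Erg insertion label the widest difference was in Dusp1, with 5.81, 6.43 and 7.19 in 26 spleens with an insertion label, against 6.02, 6.58 and 9.02 in 21 without. The difference was -0.23 ± 0.15 log2 units (SE, limma adjusted p = 0.999), and the groups overlapped. It was -0.094 ± 0.12 without the spleen highest in Fos and Dusp1 (adjusted p = 1), and with age as a further covariate -0.39 ± 0.18 (limma p = 0.0357, adjusted p = 0.993). Egr1 had 5.61, 6.26 and 8.90 in spleens with the label, against 5.75, 6.55 and 8.32 in those without, a difference of -0.013 ± 0.24 (limma adjusted p = 0.999), and 0.041 ± 0.24 without that spleen. For the sex and age labels the smallest unadjusted p among the members was 0.162 and 0.110. With the label mismatch above, these comparisons describe the labels and not checked groups of mice.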

How the data were processed

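RNA of 47 leukaemic spleens was measured, 1 array per mouse. The authors deposited log2 values from RMA (affy package, R 2.15, per the submitters' processing notes), which corrects background, makes array distributions equal and combines each probe set's probes. Precision is limited by the number of mice.

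Names came from the platform annotation: of 45101 probe sets, 34945 had 1 gene, 932 several and 9160 none. Of those with 1 gene, 34741 matched RefSeq's gene table for GRCm38.p6, used only for names. A gene's probe set was the one with the highest mean, and a gene was kept if it exceeded log2 5 in 9 or more arrays.

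Regressions and label comparisons used lmFit and eBayes of limma 3.58.1 (R 4.3.3), adjusted by Benjamini-Hochberg over every gene of the fit, with calls below 0.05. The Erg insertion, line and sex labels were each fitted with the other 2 as covariates, and age and the product term with all 3. Correlations (Pearson's r, Spearman's rho) have two-sided permutation p-values from 100000 resamples in Python 3.11.15. Pairs and controls were adjusted over all 126 relations, cell lists over their own 72 and relations within Cd3d groups over 22. With 9 arrays the permutation was exact. List means average standardised levels. The fit was tested on simulated data.

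Members and gene lists were chosen with earlier results of these data known. Named genes were all 9 members; of each list up to 4 genes past the threshold with the smallest p against the members' mean level, or 2 where none passed; the 10 most and 5 least like that mean; and the gene most like each member. Others named were chosen after their values were seen. Alternatives were other filters, scales, probe set rules, covariates, lines and arrays. Replicate numbers only name arrays in accession order.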

Additional observations from a re-analysis of the deposited data

How the results depend on the processing

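The members tested stayed uncalled for the 3′ minus 5′ difference and for every label under each alternative run, which were all 9 except with genes above log2 6 in at least 9 arrays, where 5 were tested. Of the pairs called in both directions (4 of 36), 2 were called on normal scores, 2 with monocyte and macrophage and erythroid list means as covariates, 0 in line 6113 alone, and 7 of 10 with genes above log2 6 in at least 9 arrays. The genes called for the 3′ minus 5′ difference, 3375, were 1608 of 6304 with that filter, 220 in line 6113 alone, 448 in tumours with 09 in the identifier alone and 639 without the 2 arrays farthest from the median. The line, identifier and filter settings use fewer arrays or genes, and the cause of the other shifts was not tested. Dusp1 with Zfp36 lost its call in line 6113 alone. Egr1 with Ier2 and Egr1 with Zfp36 each lost theirs in 7 of 17 settings, with r as low as 0.34 and 0.23, and Dusp1 with Fos in 5 of the 16 settings that tested Fos, with r as low as 0.086. Leaving out the spleen highest in Fos and Dusp1, the 2 highest in Fos, or the 9 with high Cd3d were alternatives chosen after seeing the data. Among single genes and relations, 27 values lost their call, 10 gained one and 545 did neither, and no called value changed sign. No paired analysis was possible because the replicate numbers only name arrays in accession order and every mouse gave 1 array.

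Fosb, Atf3 and most values of Fos lie near the floor, which limits what their correlations can show.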
